A study of Mus musculus with 9 samples.

Results

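The collagen chain genes were taken as every gene with a single symbol in the array's annotation made of Col, a number, the letter a and a number, and 44 of the 22180 genes tested met this rule. Where a gene had several probe sets, the one with the highest mean over all arrays stood for it. By the usual division of the collagens, 11 of the 44 encode fibrillar chains, 6 encode type IV chains of basement membranes and 27 encode other chains. Liver RNA of mice was hybridised to 9 whole-transcript arrays, 3 for each group. The groups were a regular diet (RD), a high-fat diet (HFD), and the high-fat diet with an extract of ginseng flower buds (GFB) at 500 mg/kg, given by mouth once a day for 12 weeks. Mice without the extract received vehicle, and all livers were taken after an overnight fast. The mice were C57BL/6 and 5 weeks old at the start, while the labels' strain field has C56BL/6J in every group. Nothing in the labels says whether an array held RNA of 1 mouse or of several, so the p-values rest on the spread between arrays, which may be technical.

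Collagens are built of 3 chains wound into a triple helix, and each Col gene encodes 1 type of chain. Fibrillar collagens, above all types I and III, form the rope-like fibres that accumulate in liver scarring, where activated hepatic stellate cells and portal fibroblasts are their main source. Type IV collagen forms the sheet of basement membranes, type VI forms beaded filaments, the FACIT collagens sit on the surface of fibrils, and the multiplexins types XV and XVIII lie at basement membranes. After translation the chains are hydroxylated and folded in the endoplasmic reticulum, trimmed of their ends outside the cell and crosslinked.

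The samples carried liver RNA by their markers. The hepatocyte marker Alb, serum albumin, ran from 13.48 to 13.57 on the log2 scale over the 9 arrays, and the mean level of 8 hepatocyte markers was between 11.71 and 12.10. The array medians were between 4.34 and 4.38. All expression values here are log2 values, so a difference of 1 is a doubling. A value after ± is the standard error of the limma fit, which estimates each gene's spread from all 9 arrays together, moderated across genes. Some differences, and all ranges and medians, are given without it. A gene was called changed at an adjusted p under 0.05 over all 22180 genes.

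The promoters of 2 chains are shown because Col3a1 passed the test and Col1a2, the partner chain of Col1a1 in type I collagen, did not. The RefSeq promoter table of the mouse assembly GRCm38.p6 had a window for 35 of the 44 genes, and none for Col1a1. Each sequence is the 250 bases before the start site on the plus strand, at chr1:45311288-45311537 for Col3a1 and chr6:4505368-4505617 for Col1a2, and capitals mark the motif letters found.
Col3a1: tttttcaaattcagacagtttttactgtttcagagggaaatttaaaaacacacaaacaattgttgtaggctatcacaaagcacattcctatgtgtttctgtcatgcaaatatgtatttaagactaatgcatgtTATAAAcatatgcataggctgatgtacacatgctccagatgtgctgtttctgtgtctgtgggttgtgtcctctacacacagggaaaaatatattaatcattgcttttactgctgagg
Col1a2: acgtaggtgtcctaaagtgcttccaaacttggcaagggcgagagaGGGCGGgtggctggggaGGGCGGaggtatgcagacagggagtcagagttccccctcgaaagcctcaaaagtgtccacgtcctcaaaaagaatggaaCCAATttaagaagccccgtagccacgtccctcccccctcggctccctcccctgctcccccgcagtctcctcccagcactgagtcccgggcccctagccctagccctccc
The Col3a1 window had 1 TATA motif (TATAAA, or TTTATA on the other strand) and a GC content of 35.2%. The Col1a2 window had 2 GC boxes (GGGCGG or CCGCCC), 1 CCAAT motif (CCAAT or ATTGG) and a GC content of 62%, against a median of 52.4% over all windows. Over 32851 windows of the same length, 12.4% held the TATA motif, 32.7% the GC box and 33.8% the CCAAT motif. Among the 35 collagen genes with a window, 5 had the TATA motif, 21 the GC box and 13 the CCAAT motif. None of the matches shown overlaps another, and a match describes these letters only.

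The mean levels of the 44 chains ran from 3.60 to 8.73. As the median of the gene means, 4.74 lies below the means of 11090 of the 22180 genes tested. The mean of 26 of the 44 chains was above this level. That was the case for 9 of the 11 fibrillar chains, 2 of the 6 type IV chains and 15 of the 27 other chains. In 15 of the 44 genes every array was below that level, a count not made for all genes, and differences in such dim genes may be understated. They included Col5a2 and Col11a1 of the fibrillar chains, Col4a3, Col4a4, Col4a5 and Col4a6 of type IV, and Col8a1, Col9a1, Col10a1 and Col12a1 of the other chains.

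In livers of the high-fat diet, 2 of the 44 collagen genes rose against the regular diet and none fell. They were Col1a1, the main chain of type I collagen, and Col3a1, the only chain of type III collagen. Of all genes tested, 1.34% were called in either direction, 0.821% higher and 0.518% lower, and 2 of 44 is 4.55%. Across the 44 genes, 26 were higher and 18 lower, with a median difference of 0.07. Over all genes 50.1% were higher and 49.9% lower, with a median of 0.00. The arrays of both groups did not overlap for 5 chains, Col1a1, Col3a1, Col27a1, Col6a3 and Col4a1, all of them higher. Over all genes, 15.8% did not overlap, 7.93% higher and 7.86% lower, so that the 5 of 44 (11.4%) are near the background for either direction together.

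Col1a1 measured 5.93, 5.79 and 5.93 in the regular-diet arrays, 6.43, 6.84 and 6.92 in the high-fat arrays and 5.68, 5.62 and 5.75 in the arrays with extract. Every high-fat array was above all 6 others, and every array with extract was below every regular-diet array. Col1a1 rose with the high-fat diet by 0.85 ± 0.12, or 1.8-fold (95% interval 0.57 to 1.12, adjusted p = 0.0152). Col3a1 measured 6.01, 5.94 and 6.20 on the regular diet, 6.84, 7.27 and 7.45 on the high-fat diet and 6.11, 6.02 and 5.98 with extract. The regular-diet and extract arrays of this gene overlapped, and all 3 high-fat arrays lay above them. Col3a1 rose by 1.14 ± 0.14, or 2.21-fold (95% interval 0.82 to 1.46, adjusted p = 0.0115), the 64th largest rise of the genes tested. In bulk liver, more cells that make a collagen and more of its RNA per cell cannot be told apart. Col1a1 lost the call without regular-diet replicate 2 (0.80, adjusted p = 0.0686), regular-diet replicate 3 (adjusted p = 0.0511), high-fat replicate 2 (adjusted p = 0.0620) or high-fat replicate 3 (adjusted p = 0.0619), and when only the 6 arrays of the comparison were fitted (adjusted p = 0.0877). Col3a1 lost it without regular-diet replicate 2 (1.09, adjusted p = 0.0538) and with only those 6 arrays (adjusted p = 0.0749).

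**Figure D1:**
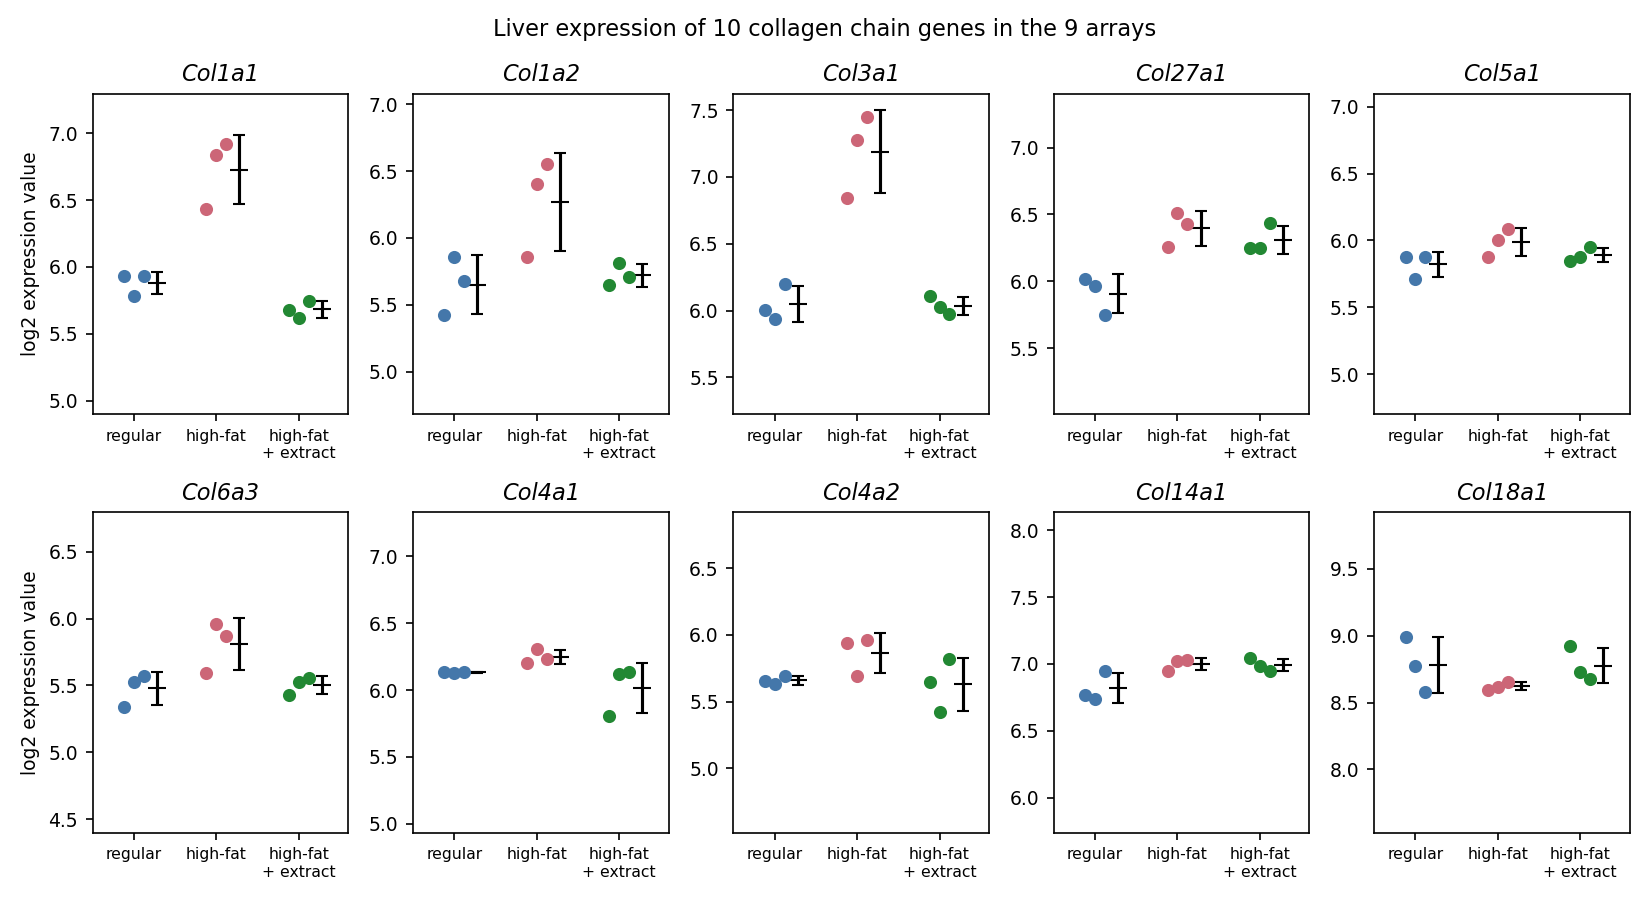
Log2 expression values of 10 collagen chain genes (1 panel each, every panel spanning 2.4 log2 units) in the 3 regular-diet, 3 high-fat and 3 high-fat plus extract arrays; points are arrays, black bars the mean and SD of each group. In Col1a1, Col3a1 and Col1a2 the 3 high-fat points are spread upward, while Col18a1 and Col4a1 stay within narrower bands.

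Col1a2, which encodes the second chain of the type I trimer, did not pass. Its values were 5.42, 5.86 and 5.68 on the regular diet, 5.86, 6.40 and 6.55 on the high-fat diet and 5.64, 5.81 and 5.70 with extract. The lowest high-fat array met the highest regular-diet array, so these groups overlapped, and the high-fat arrays were all above those with extract. The difference between the diets was 0.62 ± 0.18 (95% interval 0.22 to 1.01, adjusted p = 0.147), and without high-fat replicate 1 it was 0.83 with an adjusted p of 0.0448. Of 19 alternatives only this 1 called Col1a2. Over the 19, its difference ran from 0.47 to 0.83, with adjusted p-values up to 0.350. A less bright Col1a2 probe set, below the median in mean level, had means of 3.11, 3.43 and 3.18 in the 3 groups in the same order. High-fat replicate 1 was the lowest and replicate 3 the highest of the high-fat arrays for Col1a1, Col1a2 and Col3a1. Over all 44 chains, replicate 1 alone was lowest for 22 (50%) and replicate 3 alone was highest for 21 (47.7%), against 31.6% and 28.1% of all genes.

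Col27a1, a fibrillar chain known mainly from cartilage, was the only fibrillar chain besides types I and III whose interval for the diets lay above 0. It measured 6.02, 5.96 and 5.75 on the regular diet, 6.26, 6.51 and 6.43 on the high-fat diet and 6.25, 6.25 and 6.43 with extract. All 6 arrays of mice on the high-fat diet, with or without extract, were above all regular-diet arrays. The difference was 0.49 ± 0.10 for the diets (95% interval 0.26 to 0.72, adjusted p = 0.0573) and 0.40 ± 0.10 for extract against the regular diet (95% interval 0.17 to 0.63, adjusted p = 0.163). Between the arrays with and without extract it was -0.09 ± 0.10 (95% interval -0.32 to 0.14). Among genes above the median level alone, the adjusted p for the diets was 0.0258, and with a variance trend and robust moderation it was 0.0404.

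The chains of type V collagen, which sits within type I fibrils and helps set their diameter, had small differences. Col5a1 was 5.88, 5.71 and 5.88 on the regular diet, 5.88, 6.01 and 6.08 on the high-fat diet and 5.85, 5.88 and 5.95 with extract, and the groups overlapped. Its difference between the diets was 0.17 ± 0.08 (95% interval -0.02 to 0.35, adjusted p = 0.427). Col5a2 differed by 0.13 ± 0.07 (adjusted p = 0.487). In the annotation it neighbours Col3a1, and its arrays stayed between 4.30 and 4.57 while Col3a1 rose. Col5a3 differed by -0.01 ± 0.10 (95% interval -0.24 to 0.22). Col2a1, the cartilage fibrillar chain, ranged from 4.66 to 5.00 over all arrays and its difference was 0.12 ± 0.09 (adjusted p = 0.625).

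As a class, 9 of the 11 fibrillar chains were higher on the high-fat diet, with a median of 0.13 and a range of -0.02 to 1.14, and 2 passed. Among the 9 above the median level the median difference was 0.17. Read array by array, the median deviation of the 11 from their regular-diet means was 0.10, 0.18 and 0.23 in the high-fat arrays, 0.02, 0.05 and 0.05 with extract, and 0.02 to 0.04 in the regular-diet arrays. No regular-diet array and no array with extract reached the lowest high-fat value of this median. Over the 9 brighter chains alone the values were 0.103, 0.184 and 0.261 in the high-fat arrays, and extract replicate 3 reached 0.105, so the high-fat and extract arrays overlapped.

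**Figure D2:**
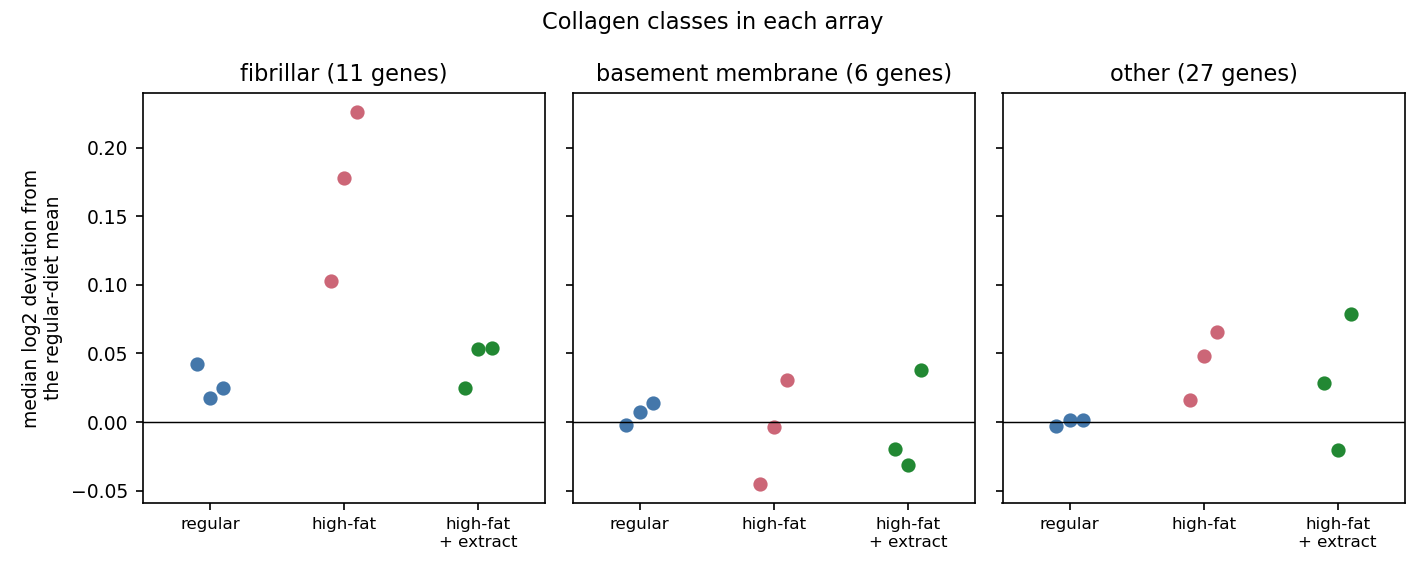
Median log2 deviation of each collagen class from its regular-diet mean (y axis) in every array, for the 11 fibrillar, 6 basement membrane and 27 other chains; points are arrays and the line marks 0. The high-fat fibrillar points reach 0.10, 0.18 and 0.23, and the other classes stay between -0.05 and 0.08.

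None of the basement membrane chains passed. The median of the 6 type IV chains was -0.03 (range -0.05 to 0.21), but 4 of them were dim in every array. The 2 above the median level were Col4a1 and Col4a2, which pair in the type IV network of nearly all tissues and are neighbours in the genome, with a median difference of 0.16. Col4a1 was 6.13 in each regular-diet array, 6.20, 6.30 and 6.23 on the high-fat diet and 5.80, 6.12 and 6.13 with extract. Its difference between the diets was 0.12 ± 0.09 (95% interval -0.10 to 0.33, adjusted p = 0.662), and the groups did not overlap because the 3 regular-diet values were nearly equal. Col4a2 was 5.65, 5.63 and 5.69 on the regular diet, 5.94, 5.69 and 5.96 on the high-fat diet and 5.65, 5.42 and 5.82 with extract. That made 0.21 ± 0.11 between the diets (95% interval -0.04 to 0.46, adjusted p = 0.478). Col4a5, a chain of kidney and other specialised basement membranes, stayed between 4.20 and 4.29.

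Among the 27 other chains none passed, 15 were higher and the median was 0.05 (range -0.22 to 0.33). Those above the median level had a median of -0.01. The median deviation of the class from its regular-diet mean was 0.02, 0.05 and 0.07 in the high-fat arrays and 0.03, -0.02 and 0.08 with extract, so these groups overlapped. Col6a3, a chain of the type VI filaments that surround fibrils, was 5.34, 5.52 and 5.57 on the regular diet, 5.59, 5.96 and 5.87 on the high-fat diet and 5.43, 5.52 and 5.56 with extract. The high-fat arrays were above those of both other groups, though the lowest by little. Its difference was 0.33 ± 0.11 (95% interval 0.09 to 0.57, adjusted p = 0.203). The other 2 chains of the type VI trimer differed less, Col6a1 by 0.01 ± 0.11 and Col6a2 by -0.02 ± 0.07. Col14a1, a FACIT collagen on the surface of fibrils, was 6.77, 6.74 and 6.95 on the regular diet, 6.95, 7.02 and 7.03 on the high-fat diet and 7.04, 6.98 and 6.95 with extract, and its difference between the diets was 0.18 ± 0.08 (adjusted p = 0.346). Col18a1, whose end fragment is endostatin, measured 8.99, 8.78 and 8.58 on the regular diet, 8.59, 8.62 and 8.65 on the high-fat diet and 8.93, 8.73 and 8.68 with extract. The regular-diet values of Col18a1 spanned those of both other groups. Its difference between the diets was -0.16 ± 0.11 (95% interval -0.41 to 0.09). Col13a1, a transmembrane chain, had the lowest difference of the class, -0.22 ± 0.10 (adjusted p = 0.398). Col15a1 differed by -0.05 ± 0.14, Col8a1 by -0.02 ± 0.09, Col9a1 by 0.07 ± 0.10, Col10a1 by 0.14 ± 0.11 and Col12a1 by 0.09 ± 0.07.

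With the extract on the high-fat diet, no collagen gene was called changed against the high-fat diet alone, and 18 of the 44 were higher and 26 lower, with a median of -0.04, while 49.4% of all genes were higher and 50.5% lower. In this comparison 0.00451% of all genes were called, which is 1 gene, higher with extract. At an unadjusted p under 0.05 this comparison had 5 of the 44 collagen chains and 1327 of the 22180 genes tested. It shares its high-fat arrays with the diet comparison, so the differences of each gene in the 2 comparisons are not independent. The groups did not overlap for 6 chains that were lower with extract, Col1a1, Col1a2, Col3a1, Col4a1, Col6a3 and Col12a1, and for 1 that was higher, Col18a1. That is 15.9% of the 44, against 9.69% of all genes, 5.27% lower and 4.42% higher.

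Col1a1 was lower with extract by 1.05 ± 0.12 on the log2 scale (2.06-fold, adjusted p = 0.0851), rank 2 of all genes by p, and Col3a1 by 1.15 ± 0.14 (2.22-fold, adjusted p = 0.0975), rank 4 by p. Their intervals were -1.32 to -0.77 and -1.47 to -0.83. Without high-fat replicate 1, the lowest high-fat array of both genes, the differences were -1.19 (adjusted p = 0.0112) and -1.32 (adjusted p = 0.0125), and both passed. Of the 9 fits without 1 array, this was the only one in which either passed. Over all 19 alternatives, including a threshold of 0.10, Col1a1 passed in 4 and Col3a1 in 3, with adjusted p-values up to 0.489 for both. Col1a2 differed by -0.55 ± 0.18 (adjusted p = 0.723), Col6a3 by -0.31 ± 0.11 (adjusted p = 0.754) and Col27a1 by -0.09 ± 0.10 (adjusted p = 0.927). For type IV, Col4a1 differed by -0.23 ± 0.09 (adjusted p = 0.802) and Col4a2 by -0.24 ± 0.11 (adjusted p = 0.845). The median over the fibrillar chains was -0.09, with 9 of 11 lower, over the type IV chains -0.03 and over the other chains -0.00.

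Against the regular diet, the arrays with extract also had no collagen gene called, where 0.442% of all genes were called. There 27 chains were higher and 17 lower, with a median of 0.03, against 50.3% and 49.6% of all genes. Of the 44 chains, 3 had an unadjusted p under 0.05, as had 2673 of the 22180 genes tested. Groups did not overlap for Col27a1 and Col10a1, which were higher with extract, and Col1a1, which was lower, or 6.82% of the 44 against 14.6% of all genes, 7% higher and 7.62% lower. Col1a1 differed by -0.20 ± 0.12 (95% interval -0.47 to 0.07, adjusted p = 0.575), Col3a1 by -0.01 ± 0.14 (95% interval -0.33 to 0.31) and Col1a2 by 0.07 ± 0.18 (95% interval -0.32 to 0.46). Col15a1, whose arrays were 5.09, 5.09 and 5.34 on the regular diet and 4.75, 4.71 and 5.10 with extract, differed by -0.32 ± 0.14 (adjusted p = 0.391). A moderated F test over all 3 groups called 173 genes, or 0.78%, among them 2 collagens, Col1a1 and Col3a1, each at an adjusted p of 0.0162. The F test called neither without regular-diet replicate 2 (adjusted p = 0.0618 for both), high-fat replicate 2 (0.0625 for both), high-fat replicate 3 (0.0579 and 0.0532) or extract replicate 2 (0.0605 and 0.0545). It called Col3a1 alone without regular-diet replicate 3 (0.0574 for Col1a1) or extract replicate 1 (0.0501 for Col1a1).

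**Figure D3:**
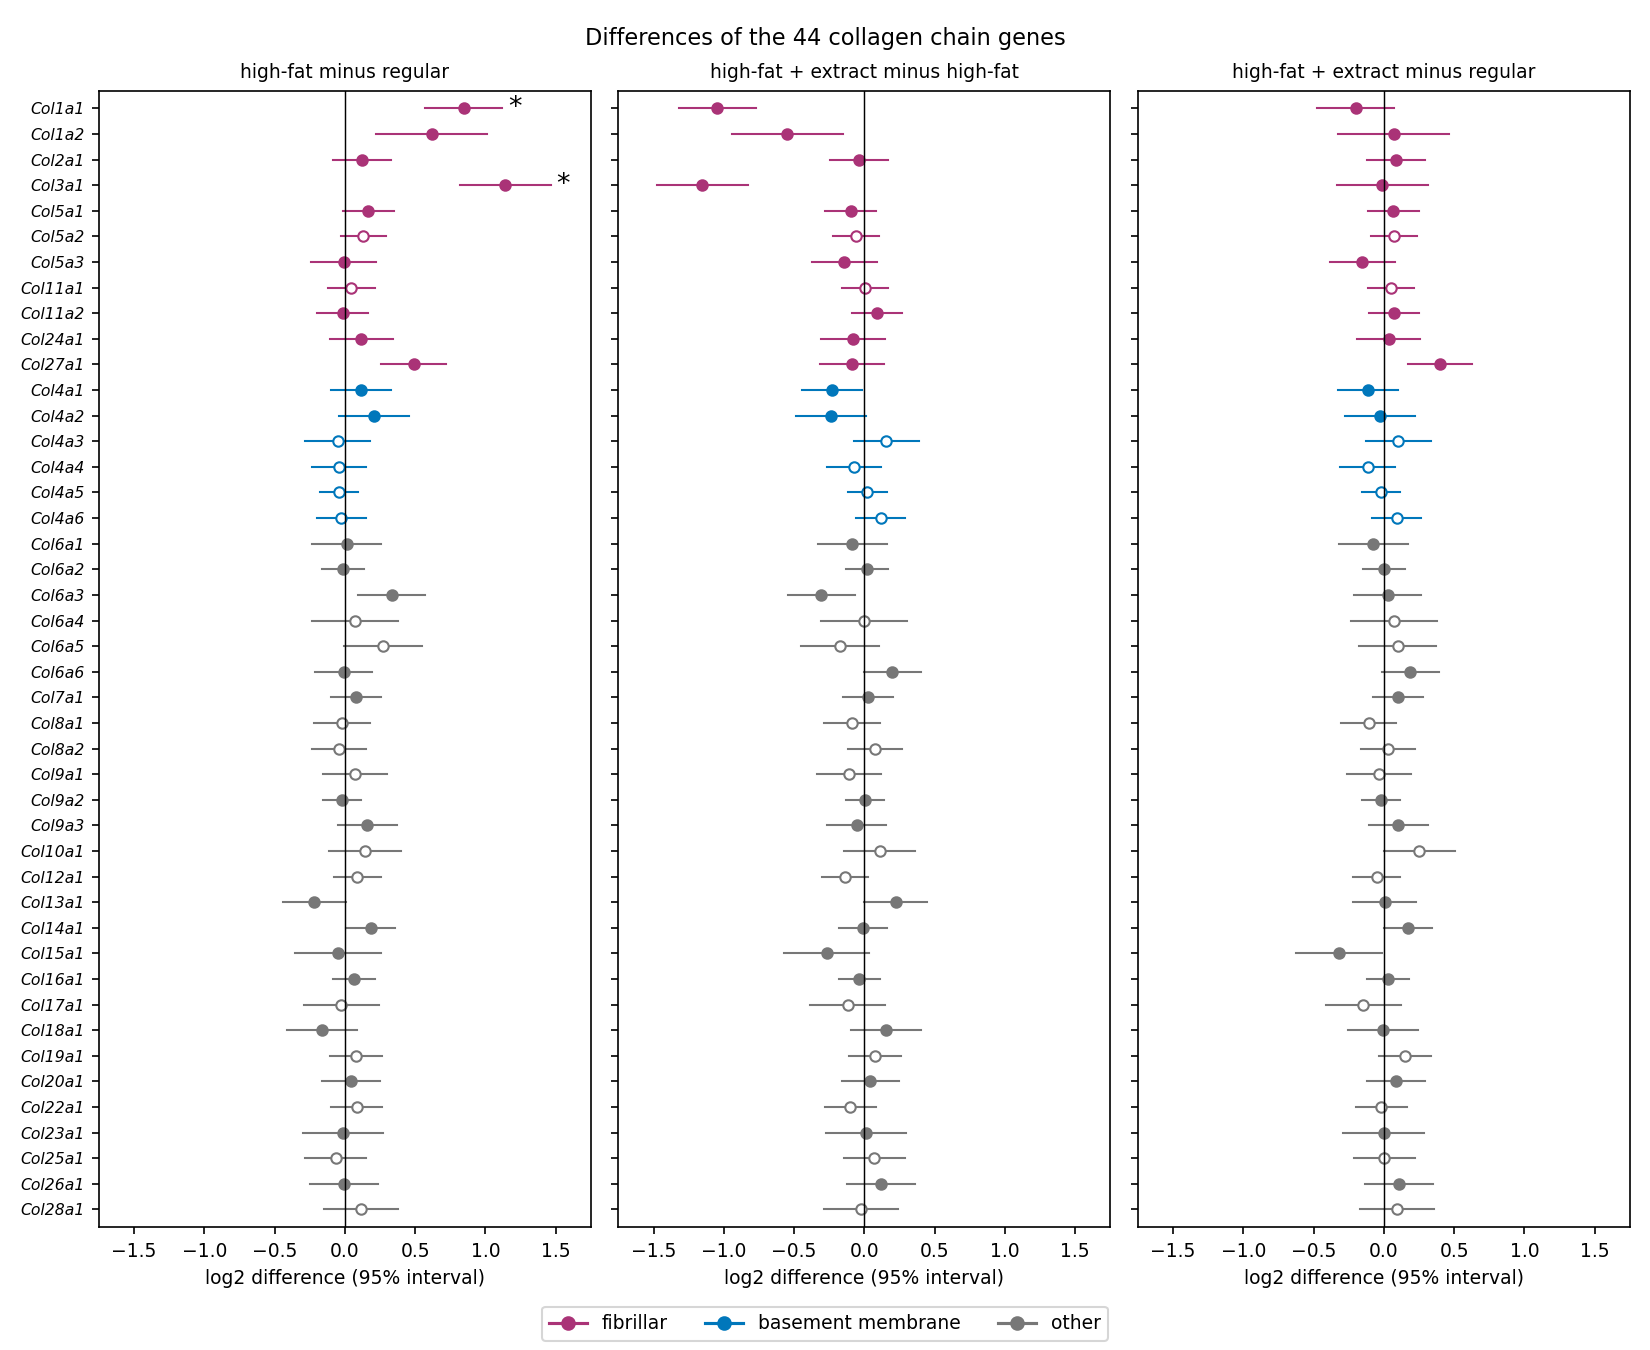
Log2 differences of the 44 collagen chain genes (rows, coloured by class) with 95% intervals in 3 comparisons; open points mark genes with a mean below 4.74, and a star marks an adjusted p under 0.05. Only Col1a1 and Col3a1, in the comparison of the diets, carry a star, and their intervals for the extract against the high-fat diet lie below 0.

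No gene of collagen folding, processing or crosslinking passed the test. Of 18 measured genes of collagen folding and modification in the endoplasmic reticulum, none was called in any comparison and their median was 0.03 between the diets. Serpinh1, the collagen chaperone Hsp47, was 5.80, 5.64 and 5.45 on the regular diet, 5.76, 5.87 and 5.86 on the high-fat diet and 5.72, 5.58 and 5.56 with extract, a difference of 0.20 ± 0.10 between the diets (adjusted p = 0.420). P4ha1, a prolyl hydroxylase subunit, differed by 0.06 ± 0.10. Of 11 genes of procollagen processing and crosslinking none passed, with a median of 0.13. The 6 with a mean above 4.74 had a median of -0.04, and 2 of these 6 were higher. Pcolce, the enhancer of procollagen C-terminal trimming, differed by 0.25 ± 0.10 (adjusted p = 0.302), and Lox, the lysyl oxidase, was below 4.74 in every array.

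Of 14 proteins associated with fibrils, none passed and the median was 0.12. Sparc, a collagen-binding protein, was 6.60, 6.48 and 6.73 on the regular diet and 6.94, 6.91 and 6.94 on the high-fat diet, with a difference of 0.33 ± 0.08 (adjusted p = 0.0782). Fn1, fibronectin, differed by 0.35 ± 0.10 (adjusted p = 0.138) and Dcn, the proteoglycan decorin on collagen fibrils, by -0.38 ± 0.11 (adjusted p = 0.149). Of 14 other basement membrane proteins none passed between the diets, with a median of 0.02. In the comparison of extract with the regular diet 1 of them fell, the laminin chain Lamb3, from 6.88, 7.70 and 7.16 to 5.45, 5.43 and 6.08 (-1.59 ± 0.24, adjusted p = 0.0322). This call was lost without any 1 array other than regular-diet replicate 1 or extract replicate 3, with adjusted p-values from 0.0532 to 0.155. Lamb3 also differed by -1.18 between the diets without extract and by -0.41 between extract and the high-fat diet, and was called in neither. Lamc1 and Nid1 differed by 0.02 ± 0.06 and 0.04 ± 0.14 between the diets.

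Of 16 genes of collagen breakdown and its inhibitors none passed, with a median of 0.03. Their mean level was 4.51 to 4.61 on the regular diet, 4.65 to 4.80 on the high-fat diet and 4.57 to 4.59 with extract. Of the 16, 8 were below 4.74 in every array, and the 6 with a mean above it had a median of -0.11. Mmp13, the interstitial collagenase, was below 4.74 in every array and Mmp14 differed by -0.34 ± 0.16. Without 1 array at a time, Mmp13 differed by 0.39 to 0.82 between the diets, never called. For extract against the high-fat diet it differed by -0.78 to -0.35, also never called. Of 20 genes of TGF-beta and PDGF signalling, the main signals for collagen production, none passed, with a median of 0.03, and Tgfb1 and Ccn2 differed by -0.06 ± 0.11 and -0.10 ± 0.17. None of the 8 collagen receptors passed.

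**Figure D4:**
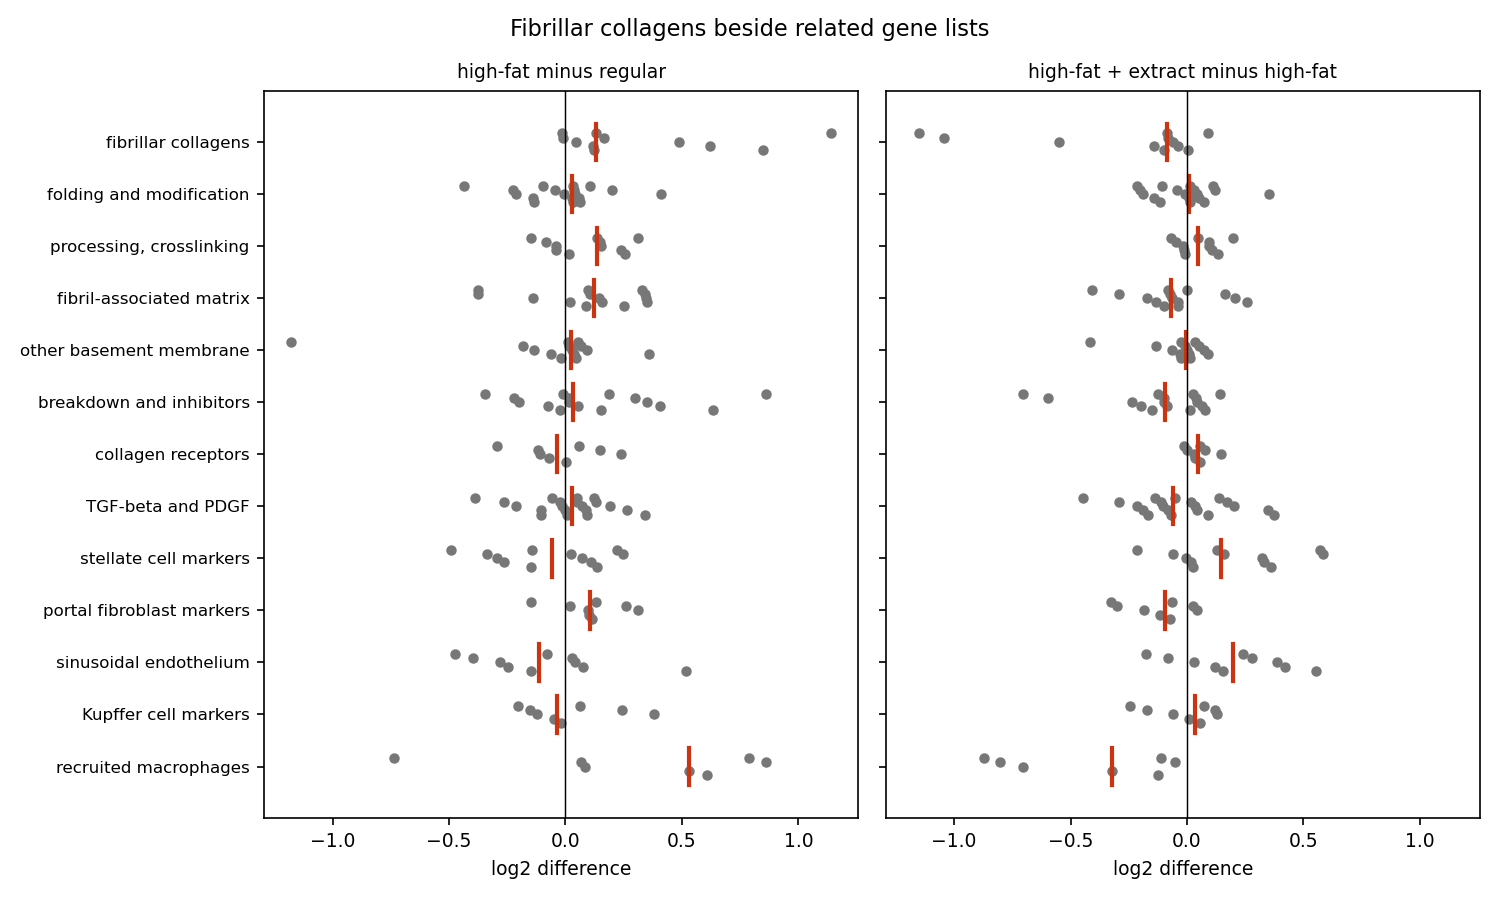
Log2 differences (x axis) of the single genes (points) of the fibrillar collagens and 12 related gene lists, for the 2 diets without extract (high-fat minus regular) and for extract against the high-fat diet; red lines mark list medians. The fibrillar collagens have a median of 0.13 in the first comparison and -0.09 in the second.

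Markers of the cells that could carry these transcripts were set beside the collagens. Of 12 hepatic stellate cell markers none passed, and their median was -0.06 between the diets and 0.14 with extract. Their mean level was 6.19 to 6.34 on the regular diet, 6.12 to 6.27 on the high-fat diet and 6.35 to 6.47 with extract. Lrat, the retinol-esterifying enzyme of quiescent stellate cells, differed by -0.15 ± 0.12 between the diets, and Acta2, the smooth muscle actin of activated ones, by 0.22 ± 0.20. For extract against the high-fat diet, 9 of the 12 were higher and 5 of the 12 had an unadjusted p under 0.05, as had 1327 of the 22180 genes tested. Without 1 array at a time, Lrat differed there by 0.48 to 0.67 and Acta2 by -0.38 to 0.02, neither called. Of 8 portal fibroblast and smooth muscle markers none passed and 7 were higher, with a median of 0.11 and mean levels of 4.55 to 4.60, 4.65 to 4.73 and 4.52 to 4.62 in the 3 groups in that order. Mfap4, Gli1 and Cnn1 of this list were below 4.74 in every array. Of 7 markers of recruited and lipid-associated macrophages, 6 were higher on the high-fat diet, none rose and Cd9 fell by 0.74 ± 0.10 (adjusted p = 0.0145, and 0.0572 without regular-diet replicate 3 or 0.0619 without high-fat replicate 3). Cd9 was also called lower with extract than on the regular diet, with a difference of -0.79, and lost this call in 4 of 9 fits without 1 array. The mean level of the 7 markers was 4.32 to 4.64 on the regular diet, 4.71 to 4.95 on the high-fat diet and 4.31 to 4.43 with extract. Itgax and Ccr2 were below 4.74 in every array. The mean level of the 8 hepatocyte markers was 11.96 to 12.10, 11.71 to 11.91 and 12.00 to 12.04 in the 3 groups. One of them fell on the high-fat diet, Cps1 of the urea cycle, by 0.66 ± 0.10 (adjusted p = 0.0224), and lost the call without regular-diet replicate 2 or 3 or any 1 high-fat array (0.0527 to 0.0851). The mean levels of the portal fibroblast and recruited macrophage markers were thus higher in the high-fat arrays than in all others, as were Col1a1 and Col3a1. The level of the collagen breakdown list was also higher there, and that of the hepatocyte markers was lower. The breakdown and recruited macrophage lists had the same largest difference between the diets, 0.862, and so may share a gene. Between the diets, the 4 portal markers with a mean above 4.74 had a median of 0.06 (range -0.15 to 0.10). The 2 such macrophage markers differed by -0.74 and 0.06. The levels of the stellate cell markers overlapped between the diets and were lower on the high-fat diet than with extract. The part of these lists in the collagen differences was not tested. Of 5 white adipose markers, Adipoq and Lep were below 4.74 in every array, and Car3, which is also strong in hepatocytes, rose by 1.93 ± 0.37 (adjusted p = 0.0412). The Car3 call was kept without regular-diet replicate 1 or 3 and lost without any other array (0.0718 to 0.143). The 5 bile duct markers had medians of 0.01 between the diets and -0.05 with extract. The 8 Kupffer cell markers had medians of -0.03 and 0.03, and the 10 markers of sinusoidal endothelium had medians of -0.11 and 0.20.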

How the data were processed

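The authors deposited 1 log2 value for each probe set and array. The submitters' processing notes name RMA and oligo, without a version. RMA removes background and makes the array distributions equal, so a shift shared by most genes would be removed. Of 41345 probe sets, 23521 had 1 symbol, and the brightest per gene left 22180 genes. Of the collagen probe sets, 47 had 1 symbol, 3 genes had several and 1 probe set shared with other genes was left out. All 9 arrays were fitted together with limma 3.58.1 in R 4.3.3 (a mean per group, 6 residual and 3.28 prior degrees of freedom), with Benjamini-Hochberg adjustment over all genes, two-sided. An exact permutation test of 3 against 3 arrays cannot go below 0.1 and was not used. The fit was tested on simulated data. The members and lists were chosen with earlier results of these data known. The naming rule covered all collagens that passed, the 3 with the smallest p per class and comparison, and a set of main chains. Of other lists it covered the genes that passed, the 3 with the smallest p and a set of well-known genes. Not all genes covered are given here. Col6a5 and Col6a6 were left out, and some other genes were left out or given without values. No gene of the collagen receptor, sinusoidal endothelium, Kupffer cell or bile duct lists is named. Alb, and the chains with no array overlap or a dim level, were named outside this rule after their values were seen. The precision is limited by the number of arrays. The alternatives tried are given in the closing section.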

Additional observations from a re-analysis of the deposited data

How the results depend on the processing

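Of 1455 values of single collagen genes under the alternatives, 1437 stayed on their side of the threshold, 7 lost the call and 11 gained it. Of 1077 values of the other named genes, 1032 stayed on their side, 33 lost the call and 12 gained it. The sign changed in 44 and 42 of these values, in each case where the gene passed neither as reported nor under the alternative. A variance trend with robust fitting called 439 genes and 3 collagens for the diets, averaging all probe sets per gene 286 and 2, and a second quantile normalization 317 and 2. Among genes above the median level alone, 597 genes were called for the diets, 4 for extract against the high-fat diet, 2 of them collagens, and 232 for extract against the regular diet. The type IV medians were then 0.16, -0.23 and -0.071, and that of the other chains for the diets was -0.0074. At an adjusted p under 0.10, the counts were 611, 4 (2 collagens) and 216. With only the 6 arrays compared they were 15, 0 and 34, with 0 collagens for the diets. A fold change of at least 1.5 left 171 genes for the diets. Array weights called 3 genes for extract against the high-fat diet, 1 of them a collagen, and shifting arrays to the same median called 0. The cause of these changes was not tested, beyond the fewer genes or arrays used.

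Without 1 array at a time, calls ran from 58 to 452 genes and 0 to 3 collagens for the diets, 0 to 3 genes and 0 to 2 collagens for extract against the high-fat diet, and 2 to 267 genes and 0 to 0 collagens for extract against the regular diet. The F test called 0 to 2 collagens. Fibrillar medians ran from 0.12 to 0.17 for the diets, -0.15 to -0.056 for extract against the high-fat diet, the lowest without high-fat replicate 1, and 0.019 to 0.082 for extract against the regular diet. Type IV medians ran from -0.049 to 0.012 and from -0.076 to 0.028 in the latter 2 comparisons, and that of the other chains from 0.010 to 0.067 for the diets.

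Deviations of same-numbered arrays from their group means correlated at -0.05 to 0.17, which does not settle whether replicate numbers pair the samples. With the replicate number as a block, 201, 1 and 68 genes were called, with 2, 0 and 0 collagens.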

Other observations

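Many chains had the same value to the last deposited digit in several arrays. At least 2 of the 9 arrays were equal for 31 of the 44 chains (70.5%), against 56.9% of all genes. At least 3 were equal for 21 chains (47.7%, against 34.1%) and at least 4 for 10 chains (22.7%, against 17.2%). The Col1a1 values of regular-diet replicates 1 and 3, both 5.93, are among them.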
